A study of Mus musculus with 7 samples.

Results

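The 10 antioxidant defence genes described here are the superoxide dismutase genes Sod1 and Sod2, the catalase gene Cat, the glutathione peroxidase genes Gpx1, Gpx3 and Gpx4, the oxidoreductase gene Nqo1, the haem oxygenase gene Hmox1 and the metallothionein genes Mt1 and Mt2. They were chosen by name, for their known function and with earlier results of these data known, and were found by their Ensembl identifiers among the 21899 genes of the files. Their RNA was measured by RNA-seq in islets of the pancreas, small groups of hormone-secreting cells among which the insulin-producing β-cells are the most numerous in the mouse, taken from male C57BL/6J mice of the second generation (F2). The founder (F0) mothers of the AE-F2 group were given dihydrotestosterone, a non-aromatizable androgen, dissolved in benzyl benzoate and corn oil by daily subcutaneous injection late in pregnancy. Those of the Ctrl-F2 group were given the vehicle alone. F1 sons of both kinds were mated with unrelated wild-type females to give the F2 males. Both groups were fed standard chow, and the age of the F2 males at islet collection is not given in the sources used here. Islets were freed with collagenase, separated on a density gradient, picked by hand and kept in serum-containing RPMI-1640 medium, so they passed through digestion and culture in both groups. The labels call the groups control and hyperandrogenism and hold 3 Ctrl-F2 and 4 AE-F2 samples. The values given here are from 1 library of each group, Ctrl-F2 replicate 1 and AE-F2 replicate 4, and the other 5 were not analysed here. How many animals gave islets to a library is not given in the sources used here.

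Cells make superoxide as a by-product of respiration and of oxidase enzymes. Superoxide dismutases turn it into hydrogen peroxide, which catalase and the glutathione peroxidases break down to water. A second arm is inducible: the transcription factor NRF2 (gene Nfe2l2) raises genes such as Nqo1 and Hmox1 under oxidative or electrophilic stress, and metals acting through the factor MTF1, glucocorticoids and oxidants raise the metallothioneins, small cysteine-rich proteins that bind zinc and copper. Pancreatic β-cells are known for low levels of catalase and glutathione peroxidase compared with liver, and for a high zinc content, since insulin is stored with zinc.

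Estimated counts totalled 16285876 for Ctrl-F2 and 21278503 for AE-F2, so the latter was 1.31 times deeper. Levels are given as counts per 1e6 counts after scaling between the libraries (CPM), and the 13627 genes averaging 10 counts or more were compared by the log2 ratio of AE-F2 over Ctrl-F2. The median log2 ratio of these genes was 0.00 and the median absolute log2 ratio was 0.12. The range given with each ratio is a 95% counting interval. With 1 library per group there is no replicate check, no p-value can be given, and each ratio compares these 2 libraries and not the conditions. The intervals hold counting error alone, since PCR copies of a molecule are counted as if separate, and the spread between animals is not in them. Islet RNA comes from many cells of several types, and fewer cells of a type cannot be told apart from less RNA per cell. The islet markers were present, with Ins2 at 2092228 and 2632403 counts in the Ctrl-F2 and AE-F2 libraries. Of 10 β-cell markers, 8 lay below equality and 2 above, with a median log2 ratio of -0.10 and a log2 ratio of their sum of 0.00. The same libraries differed in several other ways. Summed B cell markers were 14.6 CPM in Ctrl-F2 and 293 CPM in AE-F2, and summed acinar markers were 2397 and 1786 CPM.

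All 10 antioxidant defence genes passed the minimum count. In the AE-F2 library the metallothionein genes Mt1 and Mt2 were lower than in the Ctrl-F2 library by more than counting error, with log2 ratios of -0.21 and -0.39. Sod1, Gpx1 and Gpx3 were higher by more than counting error, with log2 ratios of 0.13, 0.13 and 0.25. The intervals of Sod2, Cat, Gpx4, Nqo1 and Hmox1 included equality. The interval thus lay above equality for 3 of 10 genes, against 13.2% of all genes compared, and below equality for 2 of 10, against 13.7%. Since the interval narrows with depth, the fairer background is that of genes averaging 1000 counts or more, which 7 of the 10 had. Of these 7, 3 lay above equality, against 16.0% of all such genes, and 2 lay below, against 25.5%. The same shares are the background of every list count given here. None of the 10 was 1.5-fold higher, a size that 6.0% of all genes reached, and none was 1.5-fold lower, as were 2.20%. The largest difference in either direction was that of Mt2, which was 1.31-fold lower. By sign alone 5 genes were higher and 5 were lower, and their median log2 ratio was -0.01.

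**Figure D1:**
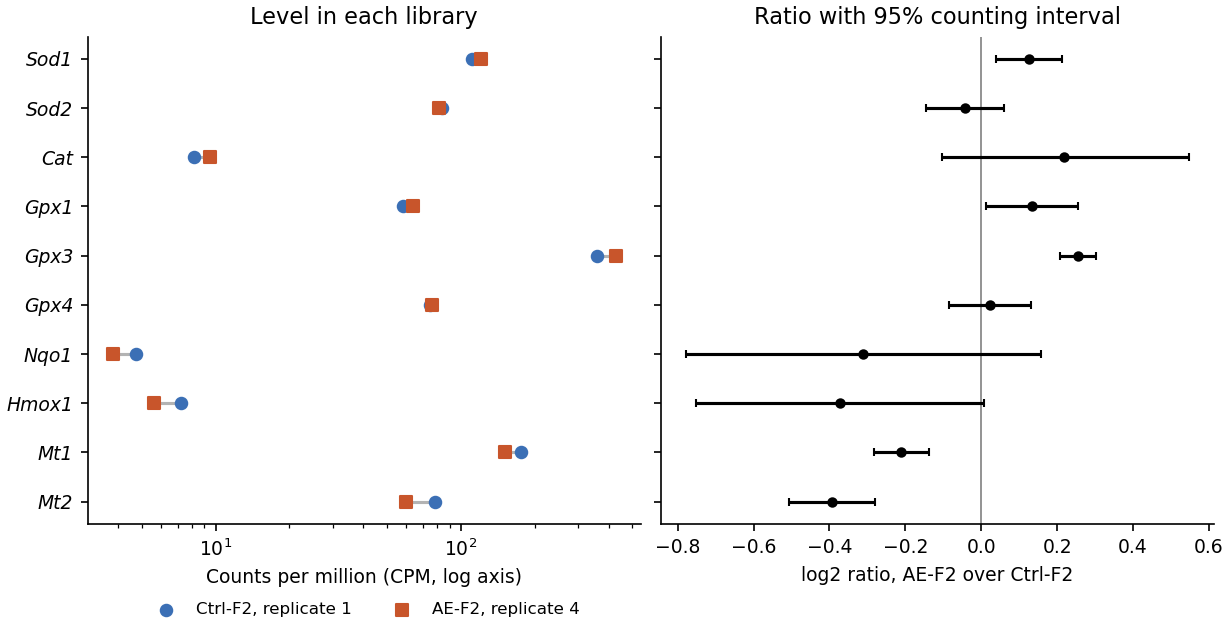
Left, the level of each of the 10 antioxidant defence genes in CPM (log axis) in the Ctrl-F2 library (circles) and the AE-F2 library (squares). Right, the log2 ratio of AE-F2 over Ctrl-F2 with its 95% counting interval as the bar and equality as the vertical line; the intervals of Mt1 and Mt2 lie left of the line, those of Sod1, Gpx1 and Gpx3 right of it, and the other 5 cross it.

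Of the members that differed beyond counting error, only the metallothionein genes were lower in AE-F2. Both lie on chromosome 8 of the mouse genome, Mt2 at 94172664 to 94173568 and Mt1 at 94179082 to 94180327 in GENCODE M21 (build GRCm38), on the forward strand. The genes are known for metal response letters, so their upstream DNA is shown. These are the 250 bases before the RefSeq start site (build GRCm38.p6), chr8:94178839-94179088 for Mt1 and chr8:94172368-94172617 for Mt2, both on the forward strand. Capitals mark matches on either strand to the core of the metal response element, spelled TGCACNC or TGCGCNC, to which MTF1 is known to bind.
Mt1: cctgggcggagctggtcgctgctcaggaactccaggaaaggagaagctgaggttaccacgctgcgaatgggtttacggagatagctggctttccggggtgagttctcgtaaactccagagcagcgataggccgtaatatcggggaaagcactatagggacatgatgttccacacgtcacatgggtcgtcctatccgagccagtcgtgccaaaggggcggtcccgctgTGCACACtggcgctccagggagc
Mt2: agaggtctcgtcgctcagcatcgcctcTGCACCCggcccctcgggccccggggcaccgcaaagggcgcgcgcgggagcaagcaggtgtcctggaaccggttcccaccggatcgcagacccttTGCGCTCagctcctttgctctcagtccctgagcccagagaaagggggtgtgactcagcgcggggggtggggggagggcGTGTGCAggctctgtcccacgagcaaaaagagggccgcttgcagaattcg
The search also took in the first 50 bases after each start site, a window of 300 bases in all. Mt2 held 4 matches, which start at -223, -128, -50 and 5 from the start site, and Mt1 held 3, which start at -23, 3 and 21. For Mt1 only the match at -23 lies within the bases printed. At least 1 match stood in 25.7% of the 32851 RefSeq windows of that length, 2 or more in 7.11% and 4 or more in 0.518%. Of the other 7 members with a window, none held a match, and Hmox1 was not matched.

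**Figure D2:**
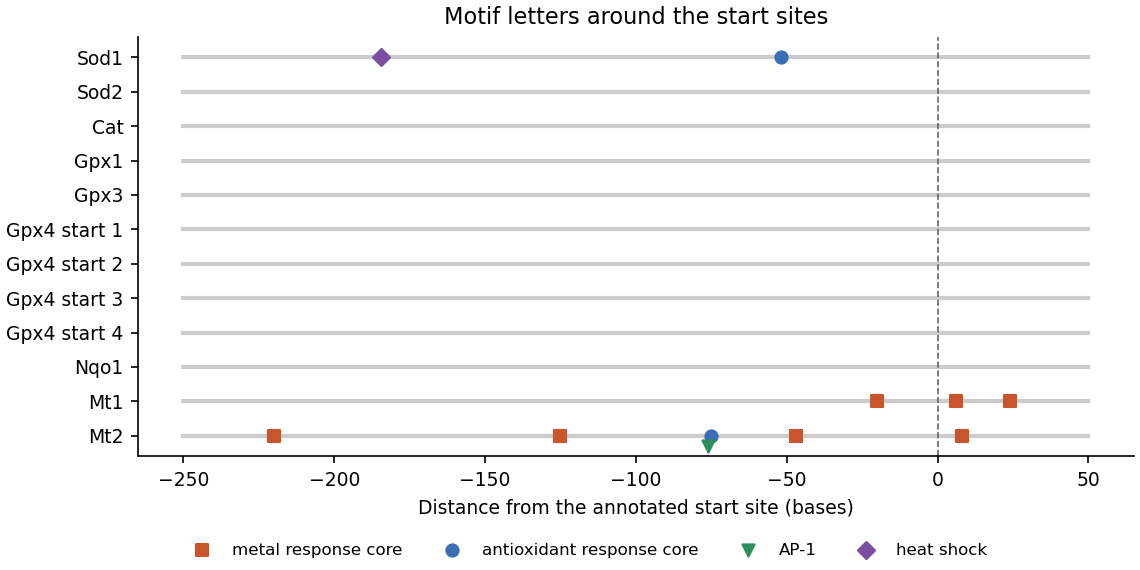
Positions of motif letters in the windows of 9 antioxidant defence genes, as distance in bases from the annotated start site (dashed line), 1 row per start site and 4 rows for Gpx4. Metal response cores (squares) stand only in the rows of Mt1 and Mt2, antioxidant response cores (circles) in those of Sod1 and Mt2, the AP-1 letters (triangle) in that of Mt2 and the heat shock letters (diamond) in that of Sod1.

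Mt1 (ENSMUSG00000031765) encodes metallothionein 1. It had 2864 counts in Ctrl-F2 and 3229 in AE-F2, or 176 and 152 CPM. The log2 ratio was -0.21 (-0.28 to -0.14). Mt2 (ENSMUSG00000031762), its close relative, had 1274 and 1266 counts, or 78.2 and 59.5 CPM, with a log2 ratio of -0.39 (-0.51 to -0.28). The count of Mt2 was nearly the same in both libraries although the AE-F2 library was the deeper one. Only 4.68% of all genes compared had a lower log2 ratio than Mt2, and 1.61% of those averaging 1000 counts or more did. For Mt1 these shares were 13.2% and 6.60%. Summed, both genes had 254 CPM in Ctrl-F2 and 211 CPM in AE-F2, with a log2 ratio of -0.26 (-0.33 to -0.20). Mt2 made up 30.8% of the metallothionein counts in Ctrl-F2 (exact Clopper-Pearson interval 29.4% to 32.2%) and 28.2% in AE-F2 (26.9% to 29.5%). This share does not depend on the scaling between libraries. The intervals overlapped only between 29.4% and 29.5%, and such an overlap does not show that the shares were equal.

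Reads of the 2 metallothionein genes could be told apart. Their principal transcripts shared 0 of 487 stretches of 25 bases, and both genes had whole-number counts in both libraries. The exons of Mt2 overlap 432 bases of Gm45774, an annotated gene on the opposite strand, and whether strand was used in counting is not given in the sources used here. The other metallothionein genes were near or at 0. Mt3, known from brain, had 4 and 15 counts and did not pass the minimum, and Mt4, known from squamous epithelium, had 0 in both libraries, which allows up to 3 counts in each.

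Zinc and copper genes other than Mt1 and Mt2 differed in both directions. Of 22 such genes 17 passed the minimum count, with 4 above equality and 2 below, and their median log2 ratio was 0.03, with 10 higher and 7 lower by sign. Slc30a8, the zinc transporter of the insulin granule and the most abundant of them, had 16903 and 20091 counts and a log2 ratio of -0.13 (-0.16 to -0.10), the lowest of those averaging 100 counts or more. Slc31a1, which imports copper, had the highest at 0.38 (0.22 to 0.54), from 526 and 894 counts. Mtf1, which encodes the metal-sensing factor, and Slc30a1, a zinc exporter that MTF1 is known to raise, were looked up after their values were seen. The log2 ratio of Mtf1 was 0.03 (-0.11 to 0.17) and that of Slc30a1 was -0.11 (-0.30 to 0.07), so neither differed beyond counting error.

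Metallothioneins are also known to respond to glucocorticoids and to cell stress, and genes of such responses differed between the same libraries. As background for the counts that follow, 13.2% of all genes compared lay above equality and 13.7% below. Among genes averaging 1000 counts or more these shares were 16.0% and 25.5%. Of 10 glucocorticoid response genes 4 lay above equality and 4 below, Lcn2 being 1 of the 4 above and passing the minimum count through AE-F2 alone with 6 and 27 counts. Dusp1, the most abundant of these by the mean of both libraries and an early response gene too, had 245 CPM in Ctrl-F2 and 96.7 CPM in AE-F2, while Pdk4, a glucocorticoid-induced kinase of fuel use, had 26.9 and 36.2 CPM. Of 20 immediate early genes that passed the minimum, 16 lay below equality and 0 above. Fos, the most abundant by the mean of both libraries, had 1142 and 575 CPM, and Atf3 had 46.4 and 4.61 CPM. Heat shock genes lay below equality in 12 of 15, with Hspa8 at 1482 and 1161 CPM and Dnajb1 at 217 and 61.6 CPM. Their summed levels were 5324 and 2796 CPM for the immediate early genes and 5985 and 4150 CPM for the heat shock genes. Acinar markers, from cells that can travel with islets, lay below equality in 12 of 12, and β-cell markers, Slc30a8 among them, in 8 of 10. The part of these in the lower Mt1 and Mt2 levels was not tested.

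Hmox1 and Nqo1, the members known as NRF2 targets, were measured with few counts. Hmox1 (ENSMUSG00000005413, chromosome 8, 75093621 to 75100589) encodes the inducible haem oxygenase, which breaks haem down to biliverdin, iron and carbon monoxide. It had 118 counts in Ctrl-F2 and 119 in AE-F2, or 7.24 and 5.60 CPM. The log2 ratio was -0.37 (-0.75 to 0.01), and the interval only just reached equality. With trends of the ratio with GC content and exon length removed it was -0.40 (-0.78 to -0.02) and lay below equality. Nqo1 (ENSMUSG00000003849, chromosome 8, 107388225 to 107403206) encodes a quinone reductase. It had 77 and 81 counts, or 4.72 and 3.81 CPM, with a log2 ratio of -0.31 (-0.78 to 0.16). At this depth a difference of that size was not detectable.

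The wider set of NRF2 targets was split in sign. Of 16 glutathione transferases and other targets that passed the minimum, 8 were higher and 8 lower, 2 lay above equality and 2 lay below. Gsta4, 1 of the 2 above, had 2 and 18 counts and passed the minimum through AE-F2 alone. The other, Gstp1, named after its values were seen, had 838 and 1260 counts and a log2 ratio of 0.20 (0.08 to 0.33). Gstz1, the most abundant, had 1896 and 2536 counts and a log2 ratio of 0.04 (-0.05 to 0.12). Gstm2 was lowest at -0.59 (-0.86 to -0.31), from 243 and 211 counts. Among NRF2 targets of glutathione and thioredoxin metabolism picked after their values were seen, Gclm had a log2 ratio of 0.04 (-0.07 to 0.15), Srxn1 0.06 (-0.07 to 0.18) and Gsr 0.01 (-0.12 to 0.14), and their intervals included equality. Txnrd1, the cytosolic thioredoxin reductase, was higher at 0.14 (0.05 to 0.22). It belongs to the list of peroxiredoxins and thioredoxins, in which 5 of 19 lay above equality and 3 below. Prdx1 at 0.16 (0.08 to 0.25) and Txn1 at 0.28 (0.10 to 0.47) of that list lay above too.

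The regulators of the NRF2 response differed in both directions, with 2 of 11 above equality and 6 below and a median log2 ratio of -0.06. Beside these, 13.2% of all genes compared lay above equality and 13.7% below. At 1000 counts or more on average the shares were 16.0% and 25.5%. Nfe2l2 itself had 644 and 1005 counts, or 39.5 and 47.3 CPM, and a log2 ratio of 0.26 (0.11 to 0.40). Mafk, 1 of the small Maf proteins that pair with NRF2, had 586 and 607 counts and a log2 ratio of -0.33 (-0.50 to -0.17). Its relatives Maff at -0.33 (-0.61 to -0.05) and Mafg at -0.27 (-0.39 to -0.15), and Bach1 at -0.23 (-0.38 to -0.09), a repressor known to hold Hmox1 down, lay below equality too and were named after their values were seen. Sqstm1, the most abundant regulator and a protein that binds the NRF2 inhibitor KEAP1, had 467 and 448 CPM with a log2 ratio of -0.06 (-0.10 to -0.01). The iron genes around haem oxygenase lay above equality in 5 of 14 and below in 0, with a median log2 ratio of 0.04, and in 4 of 14 with library totals or DESeq2 size factors in place of TMM factors. Slc40a1, the iron exporter ferroportin, had 634 and 1189 counts and a log2 ratio of 0.52 (0.38 to 0.66), and Ftl1, the ferritin light chain, had 19127 and 25438 counts at 0.03 (0.00076 to 0.055), only just above equality.

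The letters of the antioxidant response core, TGACNNNGC, to which NRF2 with a small Maf protein binds, stood in 12.4% of all windows. Among the 9 members with a window they stood in those of Sod1, from -56 to -48, and Mt2, from -79 to -71, and in none of the others, Nqo1 included. The windows reach only 250 bases before the start site, so letters further upstream were not searched. The Mt2 match overlapped the AP-1 letters TGACTCA from -79 to -73, the site of Fos and Jun proteins, which 5.20% of all windows held. Heat shock letters, searched as GAANNTTC, stood in 7.86% of all windows and in that of Sod1 alone among the members, from -188 to -181.

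Of the superoxide dismutases, Sod1 was slightly higher in AE-F2 and Sod2 did not differ beyond counting error. Sod1 (ENSMUSG00000022982, chromosome 16, 90220754 to 90226329) encodes the copper- and zinc-dependent enzyme of the cytosol. It had 1811 counts in Ctrl-F2 and 2578 in AE-F2, or 111 and 121 CPM. The log2 ratio was 0.13 (0.04 to 0.21), a 1.09-fold higher level, and 91.2% of genes averaging 1000 counts or more had a lower ratio. Sod2 (ENSMUSG00000006818, chromosome 17, 13006846 to 13040063) encodes the manganese enzyme of mitochondria and is known to be raised by NF-κB signalling. It had 1371 and 1735 counts, or 84.1 and 81.6 CPM, with a log2 ratio of -0.04 (-0.15 to 0.06). Sod2 was the only member without whole-number deposited values. Both genes summed to 195 and 203 CPM, with a log2 ratio of 0.06 (-0.01 to 0.12). The share of Sod2 in their counts was 43.1% (41.4% to 44.8%) in Ctrl-F2 and 40.2% (38.8% to 41.7%) in AE-F2.

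Cat (ENSMUSG00000027187, chromosome 2, 103453849 to 103485160), whose enzyme removes hydrogen peroxide in peroxisomes, was among the low members in both libraries. It had 133 and 202 counts, or 8.16 and 9.50 CPM, with a log2 ratio of 0.22 (-0.10 to 0.55). This is larger than the ratio of Sod1, but it rested on few counts and its interval included equality. Catalase made up 4.01% (3.37% to 4.74%) of the summed Cat, Sod1 and Sod2 counts in Ctrl-F2 and 4.47% (3.89% to 5.12%) in AE-F2. Other peroxisome genes held level, with 1 of 11 above equality, 0 below and a median log2 ratio of 0.02. Abcd3, a fatty acid transporter of the peroxisome membrane, had 198 and 202 CPM.

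Gpx3 had the highest log2 ratio of the 10 genes. Gpx3 (ENSMUSG00000018339, chromosome 11, 54902453 to 54910377) encodes the secreted glutathione peroxidase found in plasma. It had 5843 counts in Ctrl-F2 and 9091 in AE-F2, or 358 and 428 CPM. The log2 ratio was 0.25 (0.21 to 0.30), a 1.19-fold higher level, and 98.3% of genes averaging 1000 counts or more had a lower ratio. Gpx1 (ENSMUSG00000063856, chromosome 9, 108338903 to 108340343), the main peroxidase of the cytosol, had 946 and 1353 counts, or 58.0 and 63.6 CPM. Its log2 ratio was 0.13 (0.01 to 0.25), and with trends of GC content and exon length removed the interval included equality at 0.12 (-0.0047 to 0.24). Gpx4 (ENSMUSG00000075706, chromosome 10, 80047166 to 80056439), which reduces lipid peroxides in membranes and guards against ferroptosis, had 1218 and 1615 counts, or 74.7 and 76.0 CPM. Its log2 ratio was 0.02 (-0.08 to 0.13).

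The higher sum of the 3 peroxidase genes came mainly from Gpx3. They summed to 491 and 567 CPM, with a log2 ratio of 0.21 (0.17 to 0.25), whereas Gpx1 and Gpx4 alone summed to 133 and 140 CPM at 0.07 (-0.01 to 0.15). The share of Gpx3 in the 3 was 73.0% (72.0% to 73.9%) in Ctrl-F2 and 75.4% (74.6% to 76.2%) in AE-F2, and these intervals did not overlap. Genes for alpha cell, B cell and fibroblast markers were higher in the same library. Of all genes compared 13.2% lay above equality, and 16.0% of those averaging 1000 counts or more. Alpha cell markers summed to 17721 and 23880 CPM, with 3 of 7 above equality, and fibroblast and pericyte markers to 252 and 309 CPM, with 7 of 9 above. B cell markers summed to 14.6 and 293 CPM, and Cr2 and Fcmr of these were at 0 in Ctrl-F2. Of the 8, 6 passed the minimum through AE-F2 alone, and the other 2, Ighm and Cd79a, lay above equality. Erythrocyte markers, from cells that carry GPX1, summed to 59.3 and 82.4 CPM, with 4 of the 5 that passed above equality. The part of these cells in the higher Gpx1 and Gpx3 values was not tested.

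Other enzymes of the same families mostly had low counts. Gpx2, the glutathione peroxidase known from gut epithelium, was the most abundant of them with 300 and 281 counts, or 18.4 and 13.2 CPM, and a log2 ratio of -0.48 (-0.72 to -0.24). It was thus lower in the AE-F2 library, unlike Gpx3. Ccs, the copper chaperone of Sod1, had 181 and 246 counts and a log2 ratio of 0.06 (-0.22 to 0.34). Sod3, the extracellular dismutase, was named after its values were seen, with 22 and 69 counts and a log2 ratio of 1.24 (0.56 to 2.03). Gpx5 and Gpx6 had 0 counts in both libraries. Glutathione peroxidases 1 to 4 are selenoproteins in the mouse, and the genes of selenoprotein synthesis and the other selenoproteins lay above equality in 3 of 19 and below in 1, with a median log2 ratio of 0.03. Selenop, the selenium carrier, had 821 and 857 CPM, and Sepsecs, which makes the selenocysteine tRNA, was lowest at -0.20 (-0.28 to -0.11).

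Ranked per length, the members stood in nearly the same order in both libraries. In reads per kilobase of merged exon per 1e6 counts (RPKM), Gpx3 stood highest with 198 in Ctrl-F2 and 236 in AE-F2, before Mt1 with 141 and 122 and Mt2 with 133 and 101. Gpx4 had 43.3 and 44.1, Gpx1 had 40.3 and 44.2 and Sod1 had 28.0 and 30.5. Gpx1 and Gpx4 thus changed places between the libraries, though not by the length of the principal transcript, and with 1 library per group no spread was at hand to separate such neighbours. Sod2 had 8.41 and 8.15. The lowest 3 were Hmox1 with 4.13 and 3.20, Cat with 3.12 and 3.64 and Nqo1 with 3.04 and 2.45. Within this last group Cat stood below Hmox1 in the Ctrl-F2 library and above it in the AE-F2 library. With the length of the principal transcript in place of all exons, Mt1 came first with 320 and 277 and Gpx3 second with 225 and 268. Sod1, whose merged exons are 3970 bases long against 641 in the principal transcript, then took the third place with 173 and 189.

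**Figure D3:**
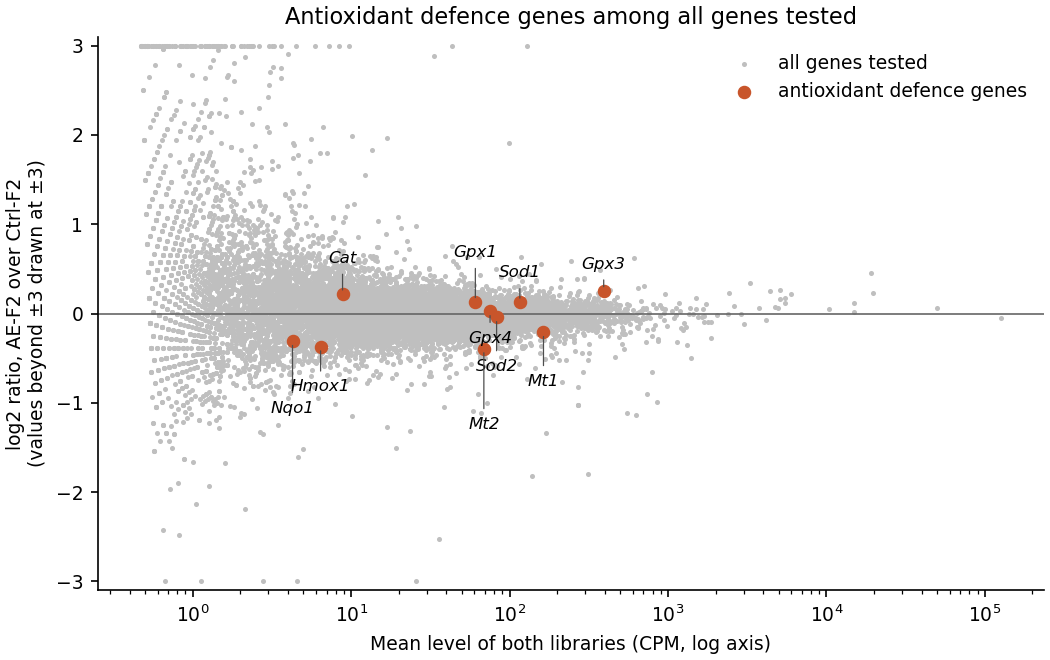
Each grey point is 1 of the 13627 genes compared, placed by its mean level in both libraries (CPM, log axis) and its log2 ratio of AE-F2 over Ctrl-F2; values beyond 3 in either direction are drawn at the edge. The 10 antioxidant defence genes (large points) lie within the cloud, from -0.39 for Mt2 to 0.25 for Gpx3.

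The 4 lowest log2 ratios of the 10, those of Mt2, Hmox1, Nqo1 and Mt1, belonged to the 4 members on chromosome 8. The 717 genes of chromosome 8 that were compared had a median log2 ratio of -0.02, with 77 above equality, or 10.7%, and 118 below, or 16.5%, beside 13.2% and 13.7% of all genes. This median, -0.0217 to more digits, was the lowest of the 20 chromosomes, but chromosome 7 at -0.0209 and chromosome 19 at -0.0188 were close to it. On chromosome 17, 116 of 670 genes lay below equality, and on chromosome 15, 90 of 539, both larger shares than on chromosome 8. The intervals of Hmox1 and Nqo1 included equality. The position of these members was looked at after their values were seen. Together the 10 members held 0.0961% of the counts in Ctrl-F2 and 0.1000% in AE-F2.

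Around the members, 135 of 156 genes in 10 lists of related function passed the minimum count. Their interval lay above equality in 32, or 23.7%, and below in 17, or 12.6%, beside 13.2% and 13.7% of all genes, and their median log2 ratio was 0.04. Of the 32, 3 (Duox2, Ncf4 and Gsta4) passed the minimum count through AE-F2 alone, and 29 of 132 lay above without these. Of the 46 averaging 1000 counts or more, 13 lay above equality, or 28.3%, and 10 below, or 21.7%, beside 16.0% and 25.5% of all such genes. In glutathione synthesis and recycling, 3 of 14 lay above and 2 below. Slc3a2, the heavy chain of the cystine importer and of other amino acid carriers, had 206 and 159 CPM with a log2 ratio of -0.37 (-0.44 to -0.30). Chac1, which degrades glutathione, was lowest at -0.72 (-0.97 to -0.47), and Glrx, a glutaredoxin, was highest at 0.33 (0.18 to 0.49). Of 19 peroxiredoxins, thioredoxins and their partners, 5 lay above equality and 3 below. Txnip, which binds thioredoxin and is known to be raised by glucose in β-cells, was the most abundant and had the lowest ratio, with 8839 counts in Ctrl-F2 and 8255 in AE-F2, or 542 and 388 CPM, and a log2 ratio of -0.48 (-0.53 to -0.44).

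**Figure D4:**
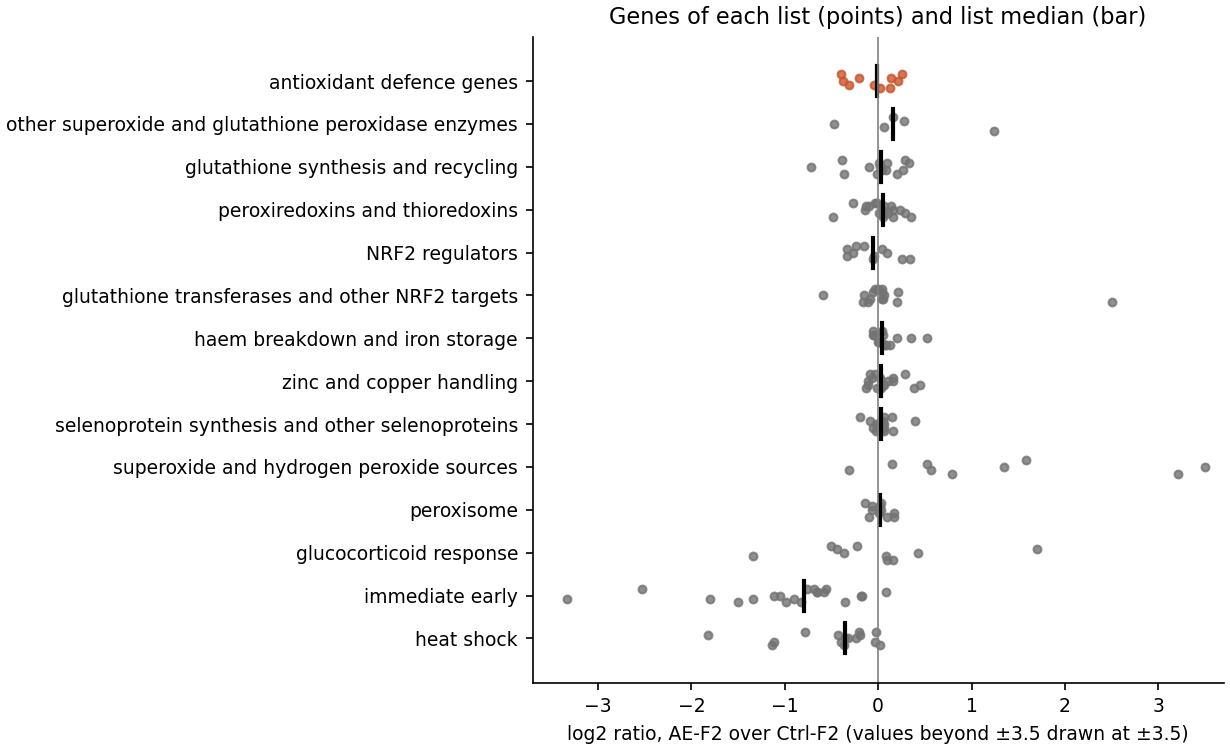
The log2 ratio of AE-F2 over Ctrl-F2 of each gene that passed the minimum count (points) and the median (bar) for the 10 antioxidant defence genes, 10 lists of related function and 3 lists of stress or hormone response. No bar is drawn for the 3 lists in which a gene passed the minimum through AE-F2 alone. The immediate early and heat shock medians stand at -0.80 and -0.35 and the other bars between -0.06 and 0.16.

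Genes that make superoxide and hydrogen peroxide were few in counts and higher in sum in AE-F2. The summed level of all 16 in the list was 28.2 CPM in Ctrl-F2 and 49.9 CPM in AE-F2, with a log2 ratio of 0.82 (0.66 to 0.98). Of the 9 that passed the minimum count, Duox2 and Ncf4 did so through AE-F2 alone, with 0 and 5 counts in Ctrl-F2, so a count over those that passed is not read here. Cybb, the catalytic subunit of the phagocyte NADPH oxidase, had 107 and 242 counts, or 6.56 and 11.4 CPM, and a log2 ratio of 0.79 (0.46 to 1.14). Noxo1, an organizer of the epithelial oxidase NOX1, had 117 and 123 counts at -0.31 (-0.69 to 0.07). Named after their values were seen, Ncf1, another subunit of the phagocyte oxidase, had 35 and 117 counts, and Rac2, its blood cell GTPase, had 14 and 174. Duox2, an epithelial oxidase, had 0 and 51 counts. In the same library B cell markers were higher as given above, and myeloid markers summed to 84.7 and 101 CPM, with 1 of 10 above equality and 1 below. Lyz2 carried this, with 6.87 and 26.9 CPM, and the other 9 summed to 77.9 and 74.4 CPM. The part of blood cells in these values was not tested.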

How the data were processed

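Islet RNA-seq of F2 male mice was analysed from 1 Ctrl-F2 and 1 AE-F2 library. GEO's labels gave the groups, with 3 Ctrl-F2 and 4 AE-F2 samples, of which 5 were not analysed here. The study's methods describe oligo(dT) selection, NovaSeq sequencing and HISAT2 alignment, while the submitters' processing notes name Bowtie2, RSEM and DESeq2. The authors deposited estimated counts per gene, with 8.56% and 9.28% of values not whole, and not scaled for depth or length. The genome build, annotation and strand setting of the counting are not given in the sources used here.

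Estimated counts were rounded. Of 21899 Ensembl identifiers 21806 matched a symbol in GENCODE M21, and the rest held 0.053% and 0.050% of the counts. Libraries were scaled with TMM factors of edgeR 4.0.16 in R 4.3.3, and those averaging 10 counts or more were compared by the log2 ratio with a pseudocount of 0.5 counts. Intervals of the ratio came from 95% Clopper-Pearson limits (scipy 1.17.1) on how the counts of a gene divided between both libraries. They narrow as the counts of a gene rise. A count of 0 allows up to 3 counts. No test was run with 1 library per group. The method was tested on simulated data. RPKM used the merged exons of GENCODE M21.

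The genes named, beside the 10 members, were the most abundant of each list by mean CPM and those with the highest and lowest ratio among genes averaging 100 counts or more, and for cell type markers the 2 most abundant. Not all of these are printed. Cell type markers enter as counts and sums over their lists, with a few also given singly, and the value of 1 marker was left out. Any other gene named, those at or near 0 included, was picked with its values known. The members and lists were chosen with earlier results of these data known. Promoter windows came from RefSeq (GRCm38.p6), in which 9 of 10 members matched, and motifs were searched on both strands. Alternatives were library totals, totals without the 10 most abundant genes, DESeq2 1.42.0 size factors, minimum means of 1 and 50 counts, a pseudocount of 5, unrounded counts, removal of GC and length trends, thinning to equal depth, and a looser and a stricter fold threshold. The length of the principal transcript was added after the data were seen.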

Additional observations from a re-analysis of the deposited data

How the results depend on the processing

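Under the 7 alternatives that can alter a ratio, 70 of 70 values of the 10 log2 ratios kept their direction and stayed within the counting interval. Unrounded counts, 1 of the 7, could alter the ratio of Sod2 alone, since the other 9 members had whole-number deposited values. The other minimum counts cannot alter a member's ratio. With GC and length trends removed, the summed Mt1 and Mt2 log2 ratio was -0.34 (-0.40 to -0.28), Gpx1 no longer lay above equality and Hmox1 lay below it, so that 2 members lay above and 3 below. The cause was not tested. With the looser fold threshold, 2 members, Mt2 and Hmox1, counted as lower, which follows from that threshold itself. The median log2 ratio of the members, near 0, was 0.0074 with totals without the 10 most abundant genes and 0.0014 with the trends removed. With the principal transcript in place of merged exons, which was added after seeing the data, Mt1 ranked first and Gpx3 second. The counts of Nqo1, Hmox1 and Cat limit what can be seen for them. No paired analysis was possible because only 1 library of each group was analysed here and these 2 share no replicate number, and for the same reason no library could be left out.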
